A study of Mus musculus with 6 samples.

Results

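Oxidative phosphorylation genes were taken as the 81 gene rows whose name begins with Ndufa, Ndufb, Ndufc, Ndufs, Ndufv, Uqcr, Atp5 or Cox4 to Cox8, or is Sdha, Sdhb, Sdhc or Sdhd, of 30774 rows in the array table. By name, 37 rows belonged to complex I, 4 to complex II, 7 to complex III, 17 to complex IV and 16 to complex V. The RNA came from 3 ScAtrxKO testes and 3 wild-type testes of male C57BL/6 mice at the age of 12 days. In ScAtrxKO mice the Atrx gene, which encodes a chromatin remodelling protein, was inactivated in Sertoli cells, through a cross of Atrxflox/flox mice with mice that carry Cre under the AMH promoter. The promoter acts in Sertoli cells, whereas the whole organ was measured, so germ cells and interstitial cells without the deletion contributed RNA as well. The sources used here do not say whether the wild-type mice carried a floxed allele or Cre. Each testis was measured on 1 array. No label ties the 3 testes of a genotype to different animals or litters, so the p-values rest on a spread that may be partly technical.

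Oxidative phosphorylation takes place in the inner mitochondrial membrane. Complexes I and II feed electrons from NADH and succinate into ubiquinone, complex III passes them to cytochrome c and complex IV to oxygen, and complex V uses the resulting proton gradient to make ATP. Nuclear genes encode most subunits, and some subunits of complex IV have a second form that is restricted to muscle or testis. In the testis, Sertoli cells are known for releasing lactate, which meiotic germ cells oxidise in their mitochondria.

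Atrx could not check the genotypes, since its background-subtracted intensity was 2.4, 3.4 and 3.3 in ScAtrxKO testes and 5.6, 2.2 and 2.8 in wild-type testes, with detection on 0 of 6 arrays. The arrays held 10493 to 10917 detected rows in ScAtrxKO and 10624 to 10803 in wild-type testes. Before normalization the mean intensity was 349.8, 469 and 458 on the ScAtrxKO arrays and 368, 376 and 381 on the wild-type arrays. ScAtrxKO replicates 2 and 3 were thus brighter over all rows, which quantile normalization removes. All 13 Sertoli cell markers with a row in the array table were detected on at least 1 array. The arrays correlated with each other at 0.984 to 0.997 over the rows tested.

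The promoter letters of 3 of the 4 members called below, and of the sister gene of Atp5g2, are shown. The printed windows differed in the motifs that they hold. Each run gives 250 bases of a promoter window of the gene, from RefSeq in build GRCm38.p6. The Cox7a1 and Atp5g2 runs end right before the listed start of the gene. The Ndufa3 run extends past the listed start at 3617347, and the Atp5g3 run lies inside the listed gene (chr2:73908447-73912464). Capitals mark the NRF1 motif, the ETS motif CCGGAAGT, which GABPA binds, and the GC box GGGCGG, each sought on both strands. The only capitals in the Atp5g2 run are the letters of the NRF1 motif.
Cox7a1 (chr7:30183921-30184170, + strand): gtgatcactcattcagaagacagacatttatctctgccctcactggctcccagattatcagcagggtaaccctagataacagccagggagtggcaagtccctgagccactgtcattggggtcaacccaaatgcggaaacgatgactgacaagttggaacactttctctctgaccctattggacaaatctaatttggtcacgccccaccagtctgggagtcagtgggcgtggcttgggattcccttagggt
Atp5g2 (chr15:102671048-102671297, - strand): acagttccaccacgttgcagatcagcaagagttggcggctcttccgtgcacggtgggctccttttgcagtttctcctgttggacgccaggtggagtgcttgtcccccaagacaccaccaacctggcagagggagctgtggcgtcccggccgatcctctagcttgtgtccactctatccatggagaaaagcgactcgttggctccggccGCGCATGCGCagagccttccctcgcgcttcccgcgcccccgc
Atp5g3 (chr2:73911327-73911576, - strand): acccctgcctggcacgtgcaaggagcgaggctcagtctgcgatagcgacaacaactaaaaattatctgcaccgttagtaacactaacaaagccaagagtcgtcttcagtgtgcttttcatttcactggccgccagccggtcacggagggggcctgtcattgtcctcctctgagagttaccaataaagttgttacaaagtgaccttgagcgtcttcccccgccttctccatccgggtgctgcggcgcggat
Ndufa3 (chr7:3617123-3617372, + strand): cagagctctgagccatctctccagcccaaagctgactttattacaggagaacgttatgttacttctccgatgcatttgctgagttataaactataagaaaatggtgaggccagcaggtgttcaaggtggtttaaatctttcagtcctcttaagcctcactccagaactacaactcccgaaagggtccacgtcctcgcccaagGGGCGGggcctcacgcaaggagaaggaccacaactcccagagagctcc

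NRF1 and GABPA are transcription factors known for binding the promoters of respiratory chain genes. The NRF1 motif stood in 4 of 72 promoter windows of the members (5.56%) and in 257 of 32851 promoters of all genes (0.782%). The ETS motif stood in 4.17% of the members' windows and in 2.88% of all promoters, and the GC box in 37.5% and 32.7%. The median number of CpG dinucleotides in a window was 14.5 for the members and 6 for all promoters. The Atp5g2 window held 1 NRF1 motif and 19 CpG. That of its sister gene Atp5g3 held no NRF1 motif and 15 CpG, but it lies inside the listed gene, so the windows differ in position. Cox7a1 held none of the 3 motifs and 4 CpG. Ndufa3 held 1 GC box and 7 CpG. Of the 81 members, 66 had at least 1 window, and these matches are descriptions of the letters only.

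Oxidative phosphorylation genes as a group stood at nearly the same level in ScAtrxKO and wild-type testes. In limma's test, 2 of the 68 members that passed the detection filter rose and 2 fell at an adjusted p under 0.05, and the other 64 were not called. The called members are 5.88% of those tested, against 13% of all 13026 rows tested, of which 7.47% were higher and 5.5% lower. The members higher in ScAtrxKO testes were Atp5g2, a c subunit of ATP synthase, and Ndufa3, an accessory subunit of complex I. The members lower were Cox7a1, the muscle form of a complex IV subunit, and Ndufa2, another accessory subunit of complex I. The log2 fold changes of the 4 had a size of 0.18 to 0.36.

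In limma's test 0 members changed by 1.5-fold with an adjusted p under 0.05, as 1.3% of all rows tested did. At an unadjusted p under 0.05 there were 14 members (6 higher, 8 lower), which is 20.6% of them, against 28.8% of all rows tested. The 3 ScAtrxKO values did not overlap the 3 wild-type values for 17 members (7 higher, 10 lower), which is 25%, against 33.8% of all rows tested. The smallest two-sided p that an exact permutation of 3 testes against 3 allows for a single row is 0.1.

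The median log2 fold change of the 68 members was 0.0042, with quartiles at -0.09 and 0.07, and that of all rows tested was -0.012, with quartiles at -0.08 and 0.06. A log2 fold change lay within 0.1 of 0 for 39 members and within 0.2 for 63. The 95% interval of the difference lay inside a 1.5-fold change in either direction for 67 of the 68 members, and inside a 1.2-fold change for 44. The exception to the wider limit was Cox8c, whose interval ran from -1.37 to -0.30. Of all 13026 rows tested, the interval lay inside 1.5-fold for 12558 and inside 1.2-fold for 8904. The median size of a log2 fold change was 0.084 among the members and 0.074 among all rows tested. On the variance-stabilized scale the change of a dim row is understated, so these limits are loose for the members near background. Of the 794 tested rows at or above the median level of the members, 16.9% were called.

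**Figure D1:**
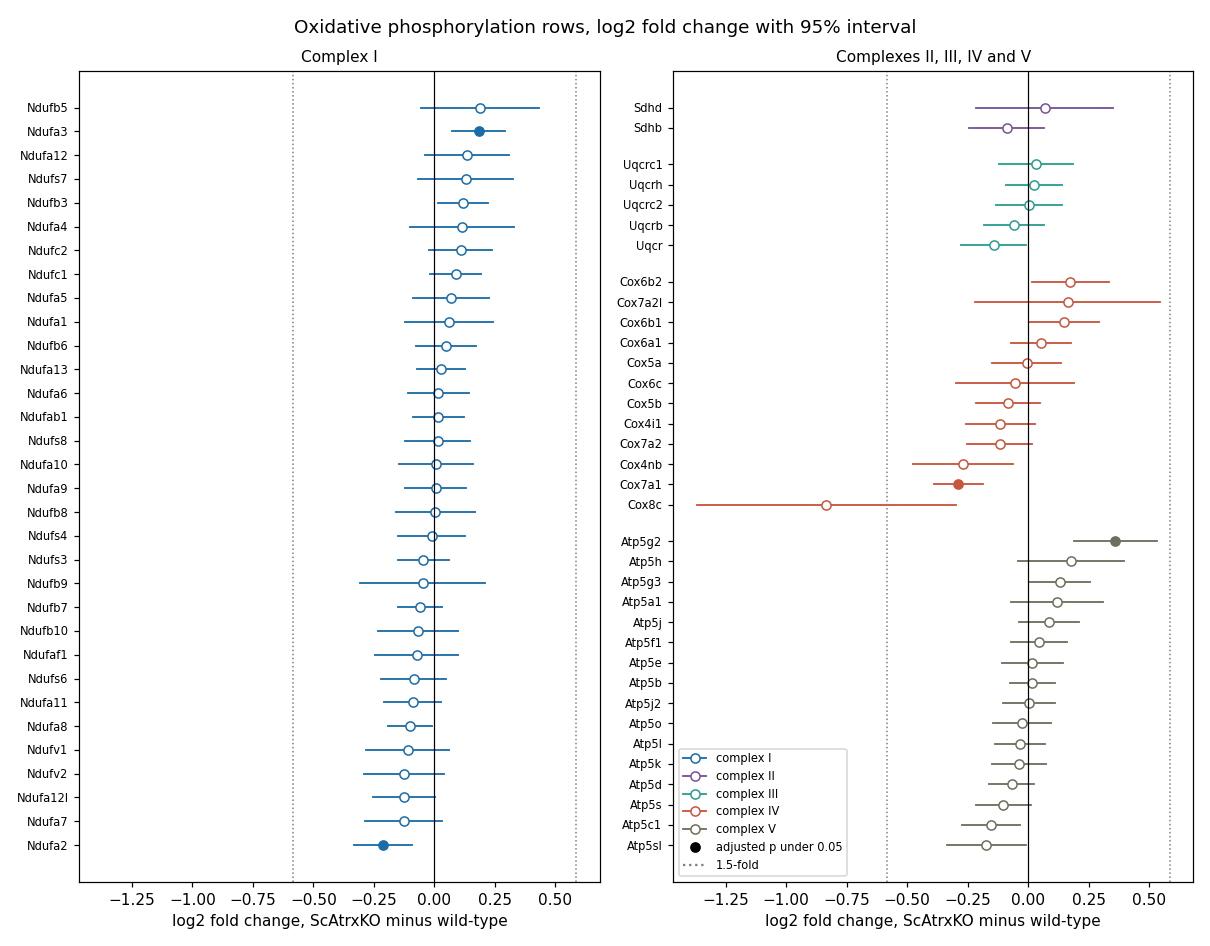
Log2 fold change (ScAtrxKO minus wild-type, x axis) of 67 of the 68 tested members, 1 per line, grouped by complex, with the limma 95% interval as a bar, filled points for an adjusted p under 0.05 and dotted lines at 1.5-fold. Most bars cross 0 and lie between the dotted lines, and only the bar of Cox8c reaches beyond them.

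The median deviation of the 68 members from their wild-type means was 0.01, -0.02 and -0.03 on the ScAtrxKO arrays and 0.01, -0.01 and -0.01 on the wild-type arrays. No array therefore stood apart in its overall level of these genes. The typical spread between testes was also alike, with a median SD of 0.08 among the 3 ScAtrxKO values and 0.08 among the 3 wild-type values of a member. Before normalization the summed intensity of the 81 rows was 243184, 321012 and 307665 in ScAtrxKO testes and 253789, 256035 and 261585 in wild-type testes. This order follows the overall brightness of the arrays.

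**Figure D2:**
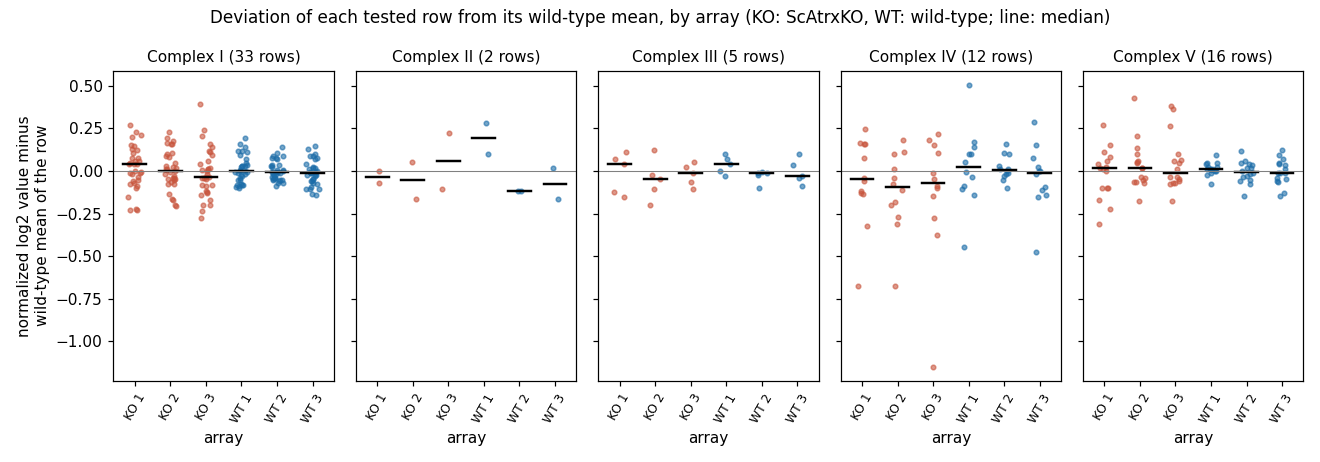
Normalized log2 value of each tested member minus its wild-type mean (y axis) on each array (x axis, ScAtrxKO replicates 1 to 3 left of wild-type replicates 1 to 3), 1 panel per complex, with a line at the median. The medians stay near 0 on each array in complexes I, III and V, and those of complex IV lie from -0.09 to -0.05 on the ScAtrxKO arrays. Wild-type points lie closer to 0 by construction, since their own mean was subtracted.

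Complex I, NADH dehydrogenase, supplied 33 tested rows, of which 1 rose, 1 fell and 31 did not pass, with a median log2 fold change of 0.01 and a range from -0.21 to 0.19. Ndufa2, an accessory subunit of the NADH-oxidising part of the complex, had normalized log2 values of 12.25, 12.28 and 12.28 in ScAtrxKO testes and 12.40, 12.48 and 12.57 in wild-type testes. All ScAtrxKO values lay below all wild-type values, and the log2 fold change was -0.21 (standard error 0.05, adjusted p = 0.0338). Ndufa3, an accessory subunit of the membrane arm, had 12.02, 12.06 and 12.07 in ScAtrxKO testes and 11.79, 11.90 and 11.90 in wild-type testes. Its values did not overlap either, and it rose by 0.18 (standard error 0.05, adjusted p = 0.0409). These 2 calls depend on the arrays included. That of Ndufa3 was lost whenever any 1 of the 6 arrays was left out (adjusted p from 0.0545 to 0.116), and that of Ndufa2 when any but wild-type replicate 1 was left out (0.0691 to 0.0993). Over all 16 alternative settings the adjusted p of Ndufa2 ran from 0.0232 to 0.193 and that of Ndufa3 from 0.0317 to 0.234.

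Next by p-value were Ndufb3, an accessory subunit of the membrane arm, and Ndufa8, an accessory subunit that faces the intermembrane space. Ndufb3 had 10.64, 10.73 and 10.71 in ScAtrxKO testes and 10.61, 10.57 and 10.55 in wild-type testes, a log2 fold change of 0.12 (adjusted p = 0.119). Ndufa8 had 11.27, 11.30 and 11.25 in ScAtrxKO testes and 11.40, 11.36 and 11.36 in wild-type testes, a log2 fold change of -0.10 (adjusted p = 0.136). Neither passed the test, although their groups did not overlap.

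The core subunits of complex I named next had log2 fold changes from -0.13 to 0.13. Ndufv1, which binds NADH, had a log2 fold change of -0.11 (95% interval -0.28 to 0.06), and its partner Ndufv2 had -0.13 (-0.29 to 0.04). Ndufs3 had -0.05 (-0.15 to 0.06), and Ndufs8, an iron-sulfur subunit, had 0.01 (-0.12 to 0.15). Ndufs7, another iron-sulfur subunit, had a log2 fold change of 0.13 (-0.07 to 0.32). None of these 5 passed the test. Ndufs1, the largest iron-sulfur subunit, was detected on 0 arrays, with intensities from -22.8 to -4.8 in ScAtrxKO testes and from -6.2 to 6.9 in wild-type testes. Ndufb2, Ndufb4 and Ndufb11, accessory subunits of the membrane arm, were detected on 0 arrays too and were not tested.

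Complex II, succinate dehydrogenase, which also serves the tricarboxylic acid cycle, supplied 2 tested rows of 4, and neither passed. Sdhb, the iron-sulfur subunit, had 10.10, 9.93 and 9.99 in ScAtrxKO testes and 10.20, 9.98 and 10.11 in wild-type testes, a log2 fold change of -0.09 (95% interval -0.24 to 0.07, adjusted p = 0.432). Sdhd, a membrane anchor, had 8.68, 8.81 and 8.98 in ScAtrxKO testes and 9.04, 8.63 and 8.59 in wild-type testes, a log2 fold change of 0.07 (-0.21 to 0.35, adjusted p = 0.77). The genotypes overlapped for both genes, and for Sdhd the high wild-type value was that of replicate 1. Sdhc, the other membrane anchor, was left out by the detection filter (lowest detection p 0.142) although its mean intensity was 1671. Its normalized values were 10.54, 10.55 and 10.45 in ScAtrxKO testes and 10.56, 10.65 and 10.56 in wild-type testes, and when bright rows were added to the test it had an adjusted p = 0.334. Sdha, the flavoprotein that oxidises succinate, was detected on 0 arrays, with an intensity below 0 on each. That row is not read as a level of the gene.

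Complex III, which hands electrons to cytochrome c, supplied 5 tested rows of 7, and none passed. Their log2 fold changes ran from -0.14 to 0.03, with a median of 0.0041. Uqcr, a small subunit that the reference names Uqcr11, had 12.63, 12.55 and 12.65 in ScAtrxKO testes and 12.75, 12.66 and 12.85 in wild-type testes. The groups did not overlap, but the highest ScAtrxKO and the lowest wild-type value were close, and the log2 fold change of -0.14 had an adjusted p = 0.151. Uqcrb, another small subunit, had 8.21, 8.32 and 8.39 in ScAtrxKO testes and 8.40, 8.35 and 8.34 in wild-type testes, a log2 fold change of -0.06 (95% interval -0.18 to 0.06, adjusted p = 0.521). The large core proteins Uqcrc1 (log2 fold change 0.03, interval -0.12 to 0.18) and Uqcrc2 (0.004, interval -0.13 to 0.14) differed by less than the spread between testes. The Rieske iron-sulfur protein Uqcrfs1 and Uqcrq were detected on 0 arrays.

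Complex IV, cytochrome c oxidase, supplied 12 tested rows of 17, of which 1 fell, 0 rose and 11 did not pass. Their median log2 fold change was -0.07, with 8 rows below 0 and 4 above, and a range from -0.83 to 0.17. The median deviation of these rows was -0.05, -0.09 and -0.07 on the ScAtrxKO arrays and 0.02, 0.01 and -0.01 on the wild-type arrays. Without wild-type replicate 3 the median was -0.11, and without ScAtrxKO replicate 2 it was -0.03.

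Cox7a1, the form of subunit VIIa known from heart and skeletal muscle, had the smallest p of all members. Its normalized log2 values were 9.85, 9.91 and 9.90 in ScAtrxKO testes and 10.23, 10.13 and 10.18 in wild-type testes. The genotypes were clearly apart, with a log2 fold change of -0.29 (standard error 0.04, 95% interval -0.39 to -0.19, adjusted p = 0.00579), which is 1.22-fold lower. It was detected on all 6 arrays and passed the test whichever array was left out. With log2 values the difference was larger but the call was lost, with a log2 fold change of -0.34 under quantile normalization (adjusted p = 0.058) and -0.35 under median scaling (adjusted p = 0.0597). Over all 16 alternative settings its adjusted p ran from 0.00485 to 0.0597. Before normalization its intensity was 852, 1191 and 1158 in ScAtrxKO and 1210, 1137 and 1186 in wild-type testes, and on that scale the genotypes overlap.

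Cox7a2, the ubiquitous partner of Cox7a1, had 8.56, 8.62 and 8.54 in ScAtrxKO testes and 8.79, 8.71 and 8.58 in wild-type testes. The groups overlapped, and the log2 fold change of -0.12 (95% interval -0.25 to 0.02) had an adjusted p = 0.232. Since smooth muscle surrounds the tubules, the markers of peritubular myoid cells stand beside Cox7a1. Of 6 such markers, 3 were tested, with Des higher by 0.61 (adjusted p = 0.00167) and Acta2 and Actg2 not passed, while Cnn1, Myh11 and Tagln were detected on 0 arrays. The log2 fold changes of the 3 ran from -0.18 to 0.61 with a median of 0.03. In limma's test 2 of the 3 had an unadjusted p under 0.05. The summed intensity of the 6 rows before normalization ran from 6739 to 8127 in ScAtrxKO and from 6636 to 7432 in wild-type testes. The part of these cells in the result was not tested.

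Cox8c, the form of subunit VIII known from the testis, had the largest difference of any member but missed the test. Its normalized log2 values were 9.25, 9.25 and 8.78 in ScAtrxKO testes and 10.43, 9.90 and 9.45 in wild-type testes. All ScAtrxKO values lay below all wild-type values, but the wild-type testes were widely spread, with an SD of 0.49 against 0.27 among the ScAtrxKO testes. The log2 fold change was -0.83 (standard error 0.23), or 1.78-fold lower, with an adjusted p = 0.0524. Before normalization its intensity was 493, 655 and 385 in ScAtrxKO and 1405, 944 and 634 in wild-type testes. Cox8c passed the test under 5 of 16 alternative settings, and over all of them its log2 fold change ran from -1.22 to -0.58 and its adjusted p from 0.00658 to 0.138. Without wild-type replicate 3 the log2 fold change was -1.07 (adjusted p = 0.018), and without wild-type replicate 1 it was -0.58 (adjusted p = 0.0942). In whole testes, fewer cells of a type and less RNA per cell cannot be told apart.

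Markers of meiotic germ cells varied in the same testes. Among all rows tested, 7.47% rose and 5.5% fell at an adjusted p under 0.05. Of 13 such markers 9 were tested, of which 3 fell (Psma8, Sycp1 and Sycp2), 1 rose (Rec8) and 5 did not pass, and Dmc1, Hormad1, Spo11 and Sycp3 were detected on 0 arrays. The median deviation of this list from the wild-type mean was -0.25, -0.13 and -0.32 on the ScAtrxKO arrays and 0.14, 0.005 and -0.14 on the wild-type arrays. Before normalization the summed intensity of the list ran from 10295 to 13437 in ScAtrxKO and from 10737 to 12873 in wild-type testes. Of 10 tested spermatogonial markers 5 fell and 0 rose, although 3 lay above 0, by up to 0.27, and Ddx4 was detected on 0 arrays. Their median deviation was -0.18, -0.24 and -0.19 on the ScAtrxKO arrays and 0.01, -0.04 and 0.01 on the wild-type arrays. Before normalization the summed intensity of the 11 rows ran from 9465 to 12445 in ScAtrxKO and from 12393 to 13004 in wild-type testes. The part of these cells in the difference of Cox8c was not tested.

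Cox6b2, a testis form as well, did not share the direction of Cox8c. It had 8.53, 8.55 and 8.55 in ScAtrxKO testes and 8.51, 8.37 and 8.23 in wild-type testes, a log2 fold change of 0.17 (standard error 0.07, adjusted p = 0.139). The groups did not overlap, although ScAtrxKO replicate 1 and wild-type replicate 1 were nearly equal. It was detected on only 4 of the 6 arrays, and its difference depended on single arrays and on the scale. Without wild-type replicate 1 the log2 fold change was 0.24 (adjusted p = 0.043), and without wild-type replicate 3 it was 0.10 (adjusted p = 0.288). With log2 values it was 0.44 under quantile normalization (adjusted p = 0.226) and 0.46 under median scaling (adjusted p = 0.216). Its ubiquitous partner Cox6b1 had 12.21, 12.06 and 12.07 in ScAtrxKO testes and 11.86, 12.00 and 12.04 in wild-type testes, a log2 fold change of 0.15 (adjusted p = 0.161). Here too the groups were close without overlapping. Cox7b2, another testis form, was detected on 0 arrays, with intensities from -11.9 to 4.1 in ScAtrxKO and from 0.9 to 5.9 in wild-type testes.

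**Figure D3:**
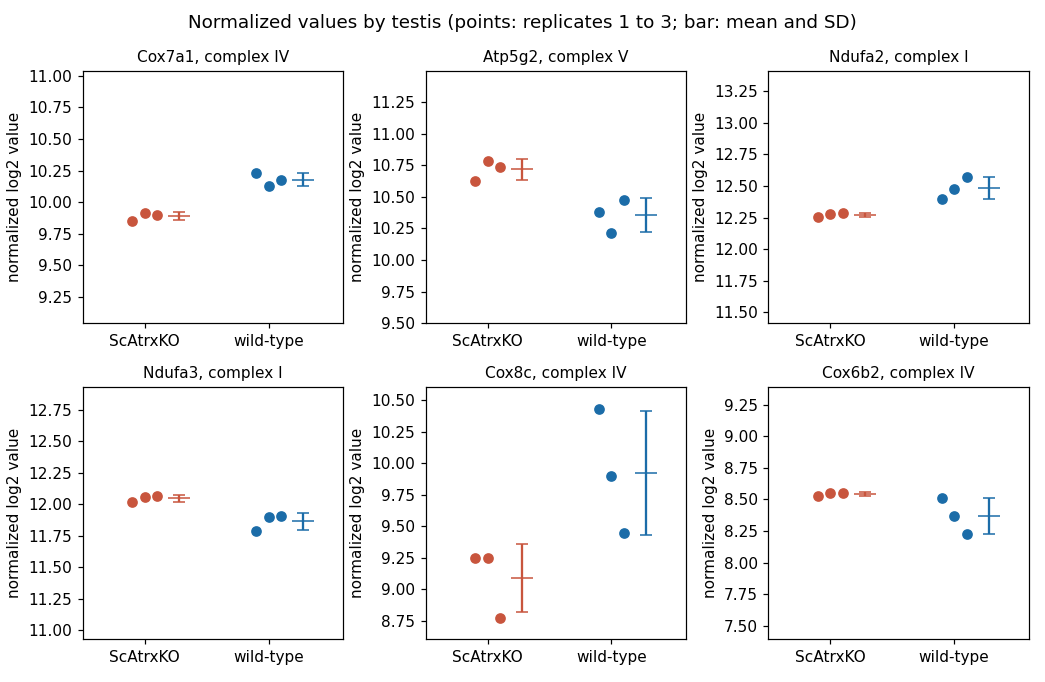
Normalized log2 value (y axis, spanning 2 units in each panel) of the 4 called members and of the testis forms Cox8c and Cox6b2 in ScAtrxKO and wild-type testes, with points for replicates 1 to 3 from left to right and a bar for the mean and SD. The genotypes do not overlap in any of the 6 panels, and Cox8c shows the widest spread among the wild-type testes.

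No ubiquitous subunit of complex IV passed the test. Cox4i1, which all tissues use, had 13.37, 13.22 and 13.34 in ScAtrxKO testes and 13.42, 13.52 and 13.33 in wild-type testes, a log2 fold change of -0.12 (95% interval -0.26 to 0.03, adjusted p = 0.267). Cox6a1 had 12.95, 12.81 and 12.78 in ScAtrxKO testes and 12.76, 12.81 and 12.82 in wild-type testes, a log2 fold change of 0.05 (-0.07 to 0.18, adjusted p = 0.576). Ndufa4, counted with complex I by its name and now known as a subunit of complex IV, had 12.99, 13.02 and 12.71 in ScAtrxKO testes and 12.70, 12.75 and 12.92 in wild-type testes, a log2 fold change of 0.11 (-0.10 to 0.33, adjusted p = 0.475). The genotypes overlapped for all 3 genes. Cox5a, Cox5b and Cox6c did not pass either, with log2 fold changes of -0.01, -0.08 and -0.06. Cox5b was detected on only 1 array although its mean intensity was 4412. The muscle forms Cox6a2 and Cox8b, the lung form Cox4i2 and the ubiquitous Cox7b were detected on 0 arrays.

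Cox4nb, which the name rule takes although it encodes Emc8, a subunit of a complex of the endoplasmic reticulum, is the neighbour of Cox4i1 in the genome. It had 10.06, 9.86 and 9.80 in ScAtrxKO testes and 10.04, 10.16 and 10.33 in wild-type testes. ScAtrxKO replicate 1 lay within the wild-type range, and the log2 fold change of -0.27 had an adjusted p = 0.0865.

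Complex V, ATP synthase, supplied 16 rows, all tested, of which 1 rose, 0 fell and 15 did not pass, with a median log2 fold change of 0.01. Atp5g2 encodes the c subunit, which forms the rotating ring in the membrane. Its normalized log2 values were 10.63, 10.79 and 10.74 in ScAtrxKO testes and 10.38, 10.21 and 10.48 in wild-type testes. The genotypes did not overlap, and it rose by 0.36 (standard error 0.07, 95% interval 0.19 to 0.53, adjusted p = 0.0191), which is 1.28-fold. The call was lost without ScAtrxKO replicate 2 (adjusted p = 0.0685), ScAtrxKO replicate 3 (0.0505) or wild-type replicate 2 (0.0513), and its adjusted p ran from 0.0106 to 0.109 over all 16 alternative settings.

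Atp5g3 encodes the same mature c subunit as Atp5g2, behind another mitochondrial targeting sequence. It had 13.80, 13.93 and 13.82 in ScAtrxKO testes and 13.72, 13.64 and 13.79 in wild-type testes, a log2 fold change of 0.13 (95% interval 0.003 to 0.26, adjusted p = 0.163). Its direction was that of Atp5g2 and its groups did not overlap, but it did not pass the test. The difference between the 2 genes was not tested.

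The catalytic subunits of complex V did not differ beyond the spread between testes. Atp5b, the beta subunit, had 14.33, 14.33 and 14.32 in ScAtrxKO testes and 14.36, 14.28 and 14.30 in wild-type testes, a log2 fold change of 0.02 with a 95% interval from -0.08 to 0.11. Atp5a1, the alpha subunit, had a log2 fold change of 0.12 (-0.07 to 0.31). Atp5c1, the gamma subunit of the central stalk, had 12.66, 12.81 and 12.71 in ScAtrxKO testes and 12.93, 12.88 and 12.84 in wild-type testes. Its groups did not overlap, and the log2 fold change of -0.16 had an adjusted p = 0.0893. Among the stalk and membrane subunits, Atp5h had 0.18 (-0.04 to 0.40), Atp5d had -0.07 (-0.16 to 0.03) and Atp5o had -0.03 (-0.15 to 0.09), and none passed.

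The name rule also took 5 rows classed here as assembly or coupling factors, all tested and none passed. Ndufaf1 and Ndufa12l (Ndufaf2 in the reference), which assist complex I, had log2 fold changes of -0.07 and -0.13. Atp5sl (Dmac2), which assists the membrane arm of complex I, had -0.17, and Atp5s (Dmac2l), a coupling factor of ATP synthase, had -0.10. Cox7a2l, which joins complexes III and IV into supercomplexes, had 0.16 with a wide interval from -0.22 to 0.54. Its value was 10.90 in wild-type replicate 1, and 11.51 and 11.64 in the other wild-type testes. Without these 5 and Cox4nb the members tested numbered 62, with 2 higher, 2 lower and a median log2 fold change of 0.0062.

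Among other genes of mitochondrial energy supply, the share called was 14.3% for electron transfer outside the rule, 5.88% for assembly factors, 21.4% for the tricarboxylic acid cycle, 18.2% for regulators of biogenesis and 7.69% for import and the membrane, against 13% of all rows tested. These lists are short, so each share rests on 1 to 3 called genes. Of 14 tested genes of electron transfer outside the rule, 1 rose (Etfb, a subunit of the electron transfer flavoprotein, by 0.26 with an adjusted p = 0.0157) and 1 fell (Coq2, an enzyme of ubiquinone synthesis, with a log2 fold change of -0.20 and an adjusted p = 0.0294). Cytochrome c (Cycs, log2 fold change -0.04), the complex III subunit Cyc1 (-0.02) and the ATP synthase inhibitor Atpif1 (-0.02) did not pass, and the testis cytochrome c gene Cyct was detected on 0 arrays. Of 17 tested assembly factors outside the rule, 1 rose and 0 fell, the gene being Oxa1l, which inserts proteins into the inner membrane (0.23, adjusted p = 0.0303).

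Of 14 tested genes of the tricarboxylic acid cycle and pyruvate dehydrogenase, 2 rose and 1 fell. Idh2, the NADP-dependent isocitrate dehydrogenase, rose by 0.61 (standard error 0.09, adjusted p = 0.00447), past the 1.5-fold limit that no oxidative phosphorylation gene reached with a call. Idh3g, a subunit of the NAD-dependent enzyme, rose by 0.24 (adjusted p = 0.0148), and the malate dehydrogenase gene Mdh2 had a log2 fold change of -0.25 (adjusted p = 0.0236). Of 11 tested regulators of mitochondrial biogenesis, 2 fell and 0 rose. Pprc1, a coactivator of the PGC-1 family, had a log2 fold change of -0.31 (adjusted p = 0.0229), and Gabpb1, the partner of GABPA, had -0.17 (adjusted p = 0.0341). Of 13 tested genes of import and the membrane, 1 fell, the translocase gene Timm50 (-0.22, adjusted p = 0.0302).

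Genes of the ribosomes, which likewise encode subunits of large complexes, gave shares of calls near that of the members. Of 65 tested mitochondrial ribosomal protein genes 1 rose and 3 fell (6.15%), and of 61 tested cytosolic ones 3 rose and 1 fell (6.56%), against 5.88% of the oxidative phosphorylation genes and 13% of all rows tested. Their median log2 fold changes were -0.02 and 0.01.

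**Figure D4:**
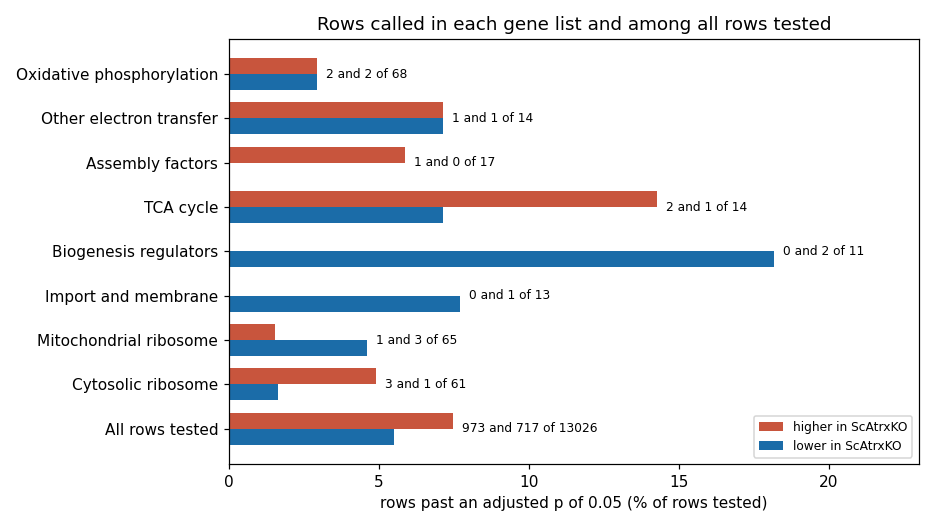
Share of tested rows (x axis, in percent) that were higher (upper bar) or lower (lower bar) in ScAtrxKO testes with an adjusted p below 0.05, for the oxidative phosphorylation genes, 7 other gene lists and all rows tested, with the counts beside the bars. The oxidative phosphorylation genes have 2 and 2 of 68, and all rows tested 973 and 717 of 13026.

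Markers of other cell types of the testis differed in the same samples. Among all rows tested, 7.47% rose and 5.5% fell at the same limit. Of 10 macrophage markers 9 rose and 0 fell, with a summed intensity from 5284 to 8011 in ScAtrxKO and from 2093 to 3030 in wild-type testes. Of 6 tested Leydig cell markers 3 rose, with a summed intensity from 4709 to 10912 in ScAtrxKO and from 2891 to 4143 in wild-type testes, and Hsd17b3 and Hsd3b6 were detected on 0 arrays. Of 6 tested endothelial markers 5 rose and 0 fell, with a summed intensity from 1363 to 1865 in ScAtrxKO and from 975 to 1000.2 in wild-type testes, and Kdr was detected on 0 arrays. Of 4 tested erythroid markers 1 rose (Alas2), with a summed intensity from 8590 to 15460 in ScAtrxKO and from 7515 to 8910 in wild-type testes. Of 13 Sertoli cell markers 3 rose and 0 fell, with a median log2 fold change of 0.06. Their part in the levels of the oxidative phosphorylation genes was not tested.

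Detection limited which members could be tested. Of the 81 members 60 were detected on all 6 arrays, 8 on 1 to 5 arrays and 13 on 0 arrays, and 12 of those 13 had a mean intensity under 200. The 8 included bright rows such as Ndufa6 (mean intensity 2610, detected on 1 array), Ndufc2 (2296, on 3) and Atp5j (2509, on 3). When all rows were tested without a filter, none of the 13 had an adjusted p under 0.05, the lowest being 0.285 for Cox8b. Undetected rows are not read as genes without expression.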

How the data were processed

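RNA of 6 whole testes was hybridised to Illumina MouseWG-6 v2 arrays. In GenomeStudio (version not given in the sources used here) the authors removed the background, combined the probes of a gene into 1 row, and deposited linear intensity values with a detection p-value for each row and array. The log2 values that the authors deposited, which are the scale used here, come from variance stabilization and quantile normalization with lumi. Their deposited table of called genes and GO sheets hold fold changes, p-values and enrichments, and were not used.

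As in the study's methods, rows with a detection p under 0.01 on at least 1 array entered limma 3.58.1 (lmFit, eBayes) in R 4.3.3 with genotype as the only term. Benjamini-Hochberg adjustment ran over all 13026 rows tested. Rows with an adjusted p under 0.05 were called, and 1.5-fold is the study's further limit. Intervals are limma's unadjusted 95% intervals. The columns of unmapped samples numbered 0. Column names gave genotype and replicate number.

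The members, the gene lists and the tests were chosen with earlier results of these data known. Named with values for each array are the members called and the members of smallest p in a complex without a call. So are the tissue-restricted isoforms and their ubiquitous partners that were tested. Cox8a, the ubiquitous partner of Cox8c, and Atp5g1, another c subunit gene, have no row under these names. Atp5b, Atp5c1, Cox4nb, Ndufa8, Ndufb3 and Sdhc are also named, and were chosen after their values were seen. So were other members named with a fold change or detection value. Values of 1 member are not reported here on their own, although it is part of each count and median. The fit was tested on simulated data. The alternatives were neqc (offset 16), log2 values floored at an intensity of 1 with quantile normalization or median scaling, the value table of the series, 3 other filters on detection, a fit with an intensity trend, weights for arrays, a block for the replicate number, and leaving out each array. A slide term was not run, because the tables used here name no slide. Replicate numbers were not taken to pair the testes. Promoter letters come from RefSeq (GRCm38.p6), whose table gave names to the rows. Probe sequences were not used here, so signal from near-identical gene copies was not checked.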

Additional observations from a re-analysis of the deposited data

How the results depend on the processing

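The small number of calls among the oxidative phosphorylation genes held under each alternative, whereas which genes were called varied. Cox7a1 kept its call under 14 of the 16 alternatives, Atp5g2 under 10, Ndufa2 under 7 and Ndufa3 under 6. With the main settings 2 members were higher and 2 lower. The number higher was 1 under neqc, with an intensity trend and with the replicate number as a block, and 0 with log2 values under quantile normalization and under median scaling. The number lower was 1 under neqc, 0 with log2 values under both scalings, and 3, with Cox8c added, with detection on at least 3 arrays, with array weights and with the replicate block. Of all rows tested 1690 were called with the main settings, 1112 under neqc, 774 and 773 with log2 values under quantile normalization and median scaling, and 816 to 1476 without single arrays. When single arrays were left out, 0 to 2 members were higher and 1 to 2 lower, and Ndufa12 (higher) and Atp5sl (lower) were called only without ScAtrxKO replicate 3. The number past 1.5-fold as well was 1, which was Cox8c, when detection on at least 3 arrays was asked for, with an intensity trend, with array weights and with the replicate block, and 0 to 1 without single arrays. The median log2 fold change of the members was -0.020 under median scaling and 0.0042 with the main settings, while that of all rows tested was -0.035 and -0.012. The log2 fold change of Sdhd ran from -0.014 to 0.21 when single arrays were left out, and lay below 0 without ScAtrxKO replicate 3 (-0.0083) or wild-type replicate 3 (-0.014). The cause of these shifts was not tested.

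No label says whether the replicate numbers pair the testes. Deviations of same-numbered arrays correlated at 0.003, 0.047 and 0.080, and those of differently numbered arrays at -0.070 to 0.038. Not every array correlated best with its own number. With 3 arrays in each genotype, such weak correlations cannot settle whether the testes were paired. With the block, 1557 of all rows tested were called in place of 1690, the call of Ndufa3 was lost (adjusted p = 0.0514) and Cox8c passed (adjusted p = 0.00658). With 3 arrays in each genotype, changes well under 1.2-fold could not be told from the spread for many members, and rows near background have only loose limits.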
